A study of Mus musculus with 33 samples.

Results

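The genes described here encode the proteins of the cytosolic ribosome. They were the protein-coding genes with a symbol of the form Rpl or Rps followed by a number (with an optional a, x or y), Rplp0 to Rplp2, Rpsa and Rps3a1, and they came to 77 of the 54752 genes in the tables, 46 for the large and 31 for the small subunit. All 77 were matched by gene identifier in the forebrain RNA, hippocampus RNA and ribosome footprint tables. The study followed mice that differ in n-Tr20, a brain-expressed arginine tRNA gene that reads AGA codons, all at 8 weeks of age. Total RNA of the forebrain, with rRNA removed, was measured in 5 groups of 4 mice. B6N was C57BL/6NJ with wild-type n-Tr20, and B6N n-Tr20 -/- was the same strain without the gene. B6J was C57BL/6J, whose own n-Tr20 allele is hypomorphic, B6J Tg was B6J carrying a transgene with the B6N n-Tr20, and B6J n-Tr20 -/- was B6J without the gene. Poly(A) RNA and ribosome footprints were sequenced from the hippocampus of 3 B6N and 3 B6N n-Tr20 -/- mice each. B6J Tg mice keep their own hypomorphic allele, and the labels do not name what drives the transgene. The hippocampus tables head their columns B6JN where the labels give C57BL/6NJ, and the labels were followed. The labels do not name the animals behind the replicate numbers, so p-values measure the spread between these samples.

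Ribosomal proteins are needed in nearly equal numbers in each ribosome, and their genes are transcribed at high levels in all cells, neurons and glia included. Their mRNAs are the classical members of the 5′ terminal oligopyrimidine (TOP) class, in which a C at the cap is followed by a run of pyrimidines, and through this run mTORC1 and the La-related protein Larp1 set how many ribosomes translate them. The proteins themselves are made in the cytosol and assembled with ribosomal RNA in the nucleolus.

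Start regions were read from RefSeq (GRCm38.p6), which listed a promoter for 57 of the 77 genes. The search was for a C between 10 bases before and 15 bases after an annotated start, on the gene's own strand. At least 4 bases that are each C or T had to follow it. A gene counted if any of its listed starts had such a run. Such a run stood in 37 of the 57 genes (64.9%), against 38.7% of all 27025 genes with a promoter. Windows of 30 bases, 10 before and 20 after the start, are shown for some of the genes named below, with the run in capitals. Where any listed start had the run, the window shown is from such a start. The starts shown for Rpl7a, Rpl19 and Rpl38 lie inside the gene rather than at its first base. In Rpl7a (chr2:26910797-26910826, plus strand) the run spans 17 bases, the longest of those printed. In Rps26 (chr10:128626487-128626516, minus strand) and Rpl38 (chr11:114668570-114668599, plus strand) the run is 8 bases long, and in Rps21 (chr2:180257369-180257398, plus strand) it is 7. Rpl19 (chr11:98026700-98026729, plus strand) has a run of 5. Among windows read but not printed, those of Rpl41 and Rpl4 had no run and that of Rps6 a run of 10. Rps25 (chr9:44407704-44407733, plus strand) and Rpl26 (chr11:68901556-68901585, plus strand) have no such run at any listed start.
Rpl7a: CTCTTCTTTCTTTCTCCagcagccgagcaa
Rps26: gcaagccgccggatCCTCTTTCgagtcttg
Rpl38: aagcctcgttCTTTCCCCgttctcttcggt
Rps21: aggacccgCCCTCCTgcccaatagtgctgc
Rpl19: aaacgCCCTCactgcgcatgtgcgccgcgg
Rps25: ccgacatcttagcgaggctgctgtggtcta
Rpl26: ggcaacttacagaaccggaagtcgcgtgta
The full 300 bases around each listed start (250 before, 50 after) were searched on both strands, and a match at any start counted. CCGGAAG, the core of an ETS-family site, was in 24 of the 57 genes (42.1%) against 9.93% of all genes. CTCGCGAG was in 7 (12.3%) against 1.04%, AAGATGG, the core of a YY1 site, in 9 (15.8%) against 7.28%, and TATAAA in 6 (10.5%) against 15.7%. A match describes letters and shows neither a site nor a factor.

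The libraries held 14699162 to 38489757 estimated counts in forebrain, 35825476 to 60426608 counts in hippocampus RNA and 7616107 to 17896587 in footprints. Levels below are counts per 1000000 counts (CPM), scaled by the trimmed mean of M values, unless given per length. All 7 neuron markers were detected in every group, and the 5 hippocampus markers summed to 751 to 1139 CPM in the hippocampus libraries against 207 to 238 in forebrain. Xist, the RNA of the inactive X, was at 335 to 369 CPM in 3 of the 4 B6J n-Tr20 -/- forebrains and at 1243 in replicate 1 of n-Tr20 -/- hippocampus RNA, and at no more than 2.31 in any other RNA library. Ddx3y, a Y-linked gene, was at 0.159 to 1.03 CPM in the same 3 forebrains and at 0.336 in that hippocampus library. It was at 45.9 or more in every other RNA library. Sex therefore differed between the B6J n-Tr20 -/- forebrains and the other forebrain groups, and its part in the results was not tested. In tissue RNA, fewer cells of a type and less RNA per cell cannot be told apart. The B6J n-Tr20 -/- libraries were all of batch 2 and the other forebrain groups of batch 1, except that B6J Tg replicate 4 had a library in each. Those 2 libraries share a replicate number and were taken as 1 mouse, called mouse 4 here. This is an assumption, since the labels do not name the animals. The level of n-Tr20 itself was not analysed here.

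Together the 77 genes took 0.666% to 0.779% of all counts in forebrain RNA, 0.932% to 1.05% in hippocampus RNA and 0.396% to 0.524% in footprints. Large-subunit genes took 1.53 to 1.60 times the counts of small-subunit genes in forebrain, 1.48 to 1.52 times in hippocampus RNA and 1.49 to 1.65 times in footprints, and the ranges of B6N and B6N n-Tr20 -/- overlapped in each assay. Per length, in transcripts per 1000000 transcripts (TPM), the median gene was at 80.2 for the large and 85.5 for the small subunit in forebrain. Rps29, a small zinc-binding protein of the small subunit, was highest at 250.4 ± 26.0 TPM (SD, n = 21 libraries). It was followed by Rpl41, the shortest ribosomal protein, at 247 ± 23.0 TPM, and Rplp1, an acidic protein of the ribosomal stalk, at 246 ± 23.1 TPM, and the spreads of these 3 overlapped. The lowest were Rpl12, a protein of the stalk base, at 3.85 ± 0.561 TPM, Rpl5, which carries 5S rRNA, at 13.7 ± 3.06, and Rps12 at 14.2 ± 2.58. Rpl5 and Rps12 did not differ beyond their spread, and all 3 of the lowest are among the genes whose level differed between the tables, as described below. Within a forebrain group the median coefficient of variation of the 77 genes was 3.46% to 5.79%, in hippocampus RNA 4.86% to 7.42% and in footprints 10.5% to 13.8%.

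Ribosomal protein genes have many processed copies in the genome, and reads shared with a copy can be assigned to either. Named copies, 297 in all, were listed for 60 of the 77 genes, and the levels of a few genes are uncertain for this reason. Rps27, a zinc-binding small-subunit protein, is the clearest case. It was at 11.4, 8.37, 6.94 and 3.97 CPM in the 4 B6N forebrains, at 7.02, 75.8, 3.19 and 25.3 CPM in the 4 B6J forebrains and at 16.1, 28.3, 12.3 and 82.7 in the 4 B6J Tg forebrains. The second library of B6J Tg mouse 4 read 14.1, against 82.7 for the first library of the same mouse. Rps27rt, its retrogene, moved the other way, at 71.6, 0.169, 82.4 and 50.3 CPM in B6J and 66.1, 51.4, 72.0 and 0.0124 in B6J Tg. The sum of both stayed between 73.2 and 85.5 CPM in all 21 forebrain libraries, a 1.17-fold range, while Rps27 alone ranged over 25.9-fold. Libraries high in Rps27 were low in Rps27rt, within every group. The level of Rps27 alone in forebrain is therefore uncertain, and no forebrain comparison called it.

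**Figure D1:**
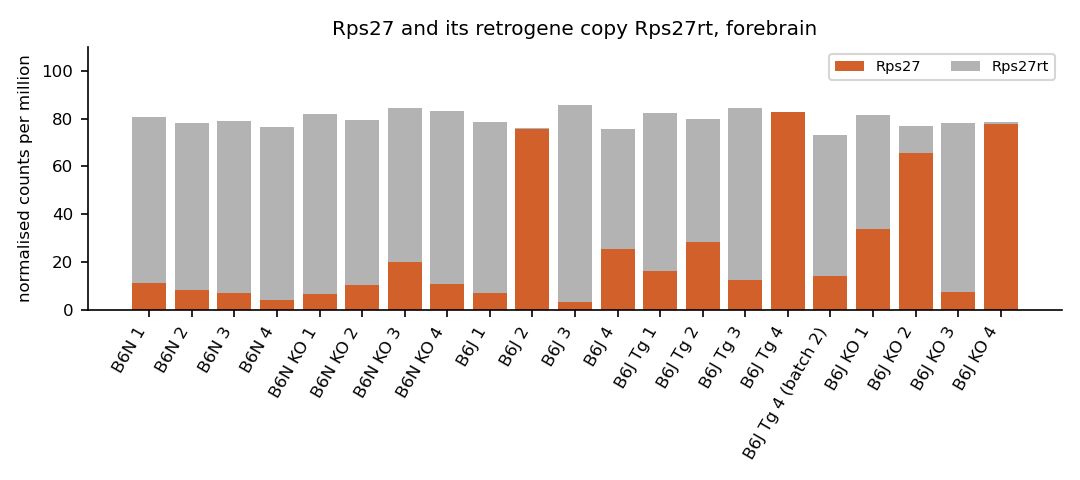
Normalised CPM of Rps27 (orange) and of Rps27rt (grey, stacked on it) in each of the 21 forebrain libraries. The bars together reach 73.2 to 85.5 in every library, while the orange part ranges from 3.19 to 82.7.

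Other genes differed between the forebrain and hippocampus tables. In B6N, 67 of the 77 genes had a forebrain RNA level between 0.425 and 1.70 times their hippocampus RNA level. 7 were over 3-fold lower in forebrain (Rpl10, Rpl12, Rpl27, Rpl5, Rps12, Rps16 and Rps27) and 3 over 3-fold higher (Rpl13a, Rpl24 and Rps10). Beside Rpl10, at a mean of 18.2 CPM in B6N forebrain and 173 in B6N hippocampus RNA, its named copies summed to 114 and 1.54 CPM. Beside Rps12, at 11.6 and 112 CPM, the copies summed to 76.6 and 1.53. Rpl12 (8.26 and 119 CPM) and Rpl5 (22.6 and 178) were also low in forebrain, but their named copies held at most 0.215 CPM there. Rpl24 read 69.1 CPM in forebrain, 1.21 in hippocampus RNA and 81.0 in footprints. These 10 genes are uncertain wherever levels are compared between genes or assays. Genotypes were compared only within a table.

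In the forebrain of B6N n-Tr20 -/- mice, ribosomal protein mRNAs were close to their B6N level. By the quasi-likelihood test of edgeR, with p-values adjusted after Benjamini and Hochberg over all 25151 genes tested, 1 of the 77 genes was higher and 0 lower at adjusted p under 0.05 (5 higher and 5 lower at unadjusted p under 0.05), against 1.11% and 0.807% of all genes (1.91% in either direction). DESeq2 also called 0 lower. The median log2 difference, n-Tr20 -/- minus B6N, was 0.0023 for the large and -0.0081 for the small subunit, against -0.0014 for all genes. Rpl23, a core large-subunit protein, was the gene called. It read 80.9, 82.9, 83.3 and 78.7 CPM in B6N and 86.5, 94.4, 94.9 and 88.0 in n-Tr20 -/-. The groups did not overlap, and the change was small (log2 difference 0.16, SE 0.041, adjusted p = 0.0367). The call ended in 6 of the 8 fits that left out 1 mouse (adjusted p between 0.0223 and 0.179 over the 8), those without any 1 of the B6N mice or without n-Tr20 -/- replicate 2 or 3. The call also ended with protein-coding transcripts only (adjusted p = 0.179) and with a transcript length offset (adjusted p = 0.237).

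The 3 genes that mark the set did not pass the test in that comparison. Rpl7a, a large-subunit protein, read 115, 112, 108 and 101 CPM in B6N and 107, 119, 114 and 113 in n-Tr20 -/- (log2 difference 0.057, SE 0.044, adjusted p = 0.654). Rpl19, a large-subunit protein that takes part in a bridge between the subunits, read 180.2, 177, 169.9 and 159 CPM in B6N and 164, 168, 172 and 167 in n-Tr20 -/- (log2 difference -0.032, SE 0.041, adjusted p = 0.826). Rps29 read 115, 119, 109.5 and 112 CPM in B6N and 111, 107, 109 and 98.8 in n-Tr20 -/- (log2 difference -0.10, SE 0.042, adjusted p = 0.305). In each of these 3 genes the groups overlapped.

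The forebrain comparisons among B6J, B6J Tg and B6N called no ribosomal protein gene. B6J against B6J Tg, the test of the hypomorphic allele within the strain, called 0 higher and 0 lower of 77 with edgeR and with DESeq2 (2 higher and 7 lower at unadjusted p under 0.05), where 0.171% and 0.0795% of all genes were called higher and lower (0.25% in either direction). The 77 genes had a median of -0.027, against -0.0013 for all genes. The smallest p was that of Rpl23a, which lies at the exit of the peptide tunnel (log2 difference -0.12, SE 0.040, adjusted p = 0.222), followed by Rpl11, a partner of Rpl5 and 5S rRNA (log2 difference -0.11, SE 0.039, adjusted p = 0.27). B6J against B6N called 0 and 0 with both tools (2 higher and 5 lower unadjusted), against 1.21% and 0.513% of all genes (1.73% in either direction), with a median of -0.027. The smallest p were those of the small-subunit genes Rps18 (log2 difference -0.14, SE 0.044, adjusted p = 0.0856) and Rps14 (log2 difference -0.12, SE 0.037, adjusted p = 0.0973). B6J Tg against B6N called 0 and 0 with both tools (1 and 0 unadjusted), against 0.27% and 0.0954% of all genes (0.366% in either direction), with a median of 0.0036. Its smallest p were those of Rps27, uncertain as described above (log2 difference 2.17, SE 0.89, adjusted p = 0.5), and Rps9 (log2 difference 0.088, SE 0.044, adjusted p = 0.583). The difference between the effect of the knockout in B6N and that of the hypomorphic allele in B6J was called in 0 of 77 genes in either direction by both tools (3 higher and 0 lower unadjusted), against 0.0199% higher and 0.0398% lower of all genes (0.0596% in either direction). Its smallest p were those of Rpl5 (log2 difference 0.27, SE 0.085, adjusted p = 0.316) and Rps12 (log2 difference 0.27, SE 0.12, adjusted p = 0.548). These comparisons share their B6J, B6J Tg and B6N libraries. With only the B6J and B6N libraries in the fit, 1 gene was higher and 2 lower, and with the replicate block or with protein-coding transcripts only 1 was lower.

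In the forebrain of B6J n-Tr20 -/- mice a few large-subunit mRNAs were called higher, and the size of the difference rests on the second library of 1 control mouse. The group was compared with B6J Tg in a fit over all 21 forebrain libraries with a term for the batch. That term was set by the 2 libraries of B6J Tg replicate 4, taken as 1 mouse. In that fit 3 of the 77 genes were higher and 0 lower (32 higher and 2 lower at unadjusted p under 0.05), against 0.546% and 0.192% of 25481 genes (0.738% in either direction), and DESeq2 called 11 higher and 0 lower. As log2 differences, the medians were 0.18 for the large and 0.16 for the small subunit, against 0.0077 for all genes. The 3 genes were Rpl7a (log2 difference 0.57, SE 0.092, adjusted p = 0.00185), Rpl19 (log2 difference 0.44, SE 0.083, adjusted p = 0.00482) and Rpl26, a large-subunit protein (log2 difference 0.38, SE 0.092, adjusted p = 0.0366). Leaving out B6J Tg replicate 1, 2 or 3 gave 12, 5 or 14 higher, leaving out B6J n-Tr20 -/- replicate 2 or 3 gave 11 or 6, and the call of Rpl26 ended in 2 of the 7 fits. It also ended with no filter on low counts (adjusted p = 0.0539), with protein-coding transcripts only (0.0643) and with a transcript length offset (0.166). B6J Tg mouse 4 could not be left out, since the batch term rests on it.

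The values of each library are these. Rpl7a read 112, 102, 105 and 102 CPM in the 4 batch 1 libraries of B6J Tg, 79.0 in the batch 2 library of mouse 4, and 113, 123, 126 and 122 in B6J n-Tr20 -/-. Rpl19 read 182, 165, 177 and 168 CPM in batch 1 of B6J Tg, 127 in batch 2 of mouse 4, and 177, 173, 185 and 179 in B6J n-Tr20 -/-. Rpl26 read 124, 124, 139 and 129.7 CPM in batch 1 of B6J Tg, 103 in batch 2 of mouse 4, and 136, 124, 134 and 140.2 in B6J n-Tr20 -/-. For Rpl19 and Rpl26 the knockouts overlapped the batch 1 libraries, for Rpl7a they lay above them, and for all 3 the batch 2 library of mouse 4 lay below each of the 8. Between its 2 libraries mouse 4 had a median log2 difference (batch 2 minus batch 1) of -0.20 over the 77 genes, 69 of them below 0, against -0.013 over 20366 genes above 1 CPM. The batch 2 library of mouse 4 was the deepest, at 38489757 estimated counts, and had the highest share of ribosomal protein counts on retained-intron transcripts, 6.46% against 5.001% to 5.997% in the others. The B6J n-Tr20 -/- forebrains had all 6 choroid plexus markers at a summed 389.9 to 555 CPM against 14.8 to 65.9 in B6J Tg, and Xist and Ddx3y as given above. The part of these in the result was not tested.

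**Figure D2:**
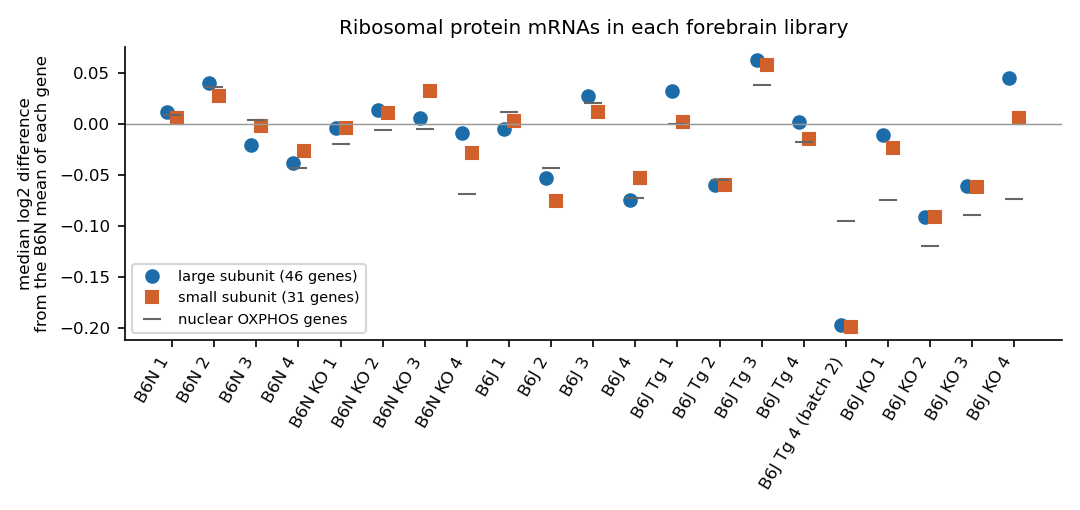
Median log2 difference of the 46 large-subunit (circles) and 31 small-subunit (squares) genes from each gene's B6N mean, and of the nuclear oxidative phosphorylation (OXPHOS) genes (dashes), in each forebrain library. Library medians over all 77 genes lie between -0.091 and 0.062, except the batch 2 library of B6J Tg mouse 4 at -0.20.

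Without the batch term and the second library of mouse 4, 8 of the 77 genes were higher and 18 lower, with a median of -0.033. That fit called 3615 genes in all, and batch and genotype cannot be told apart in it. Rpl7a then differed by 0.20 (adjusted p = 0.00291), Rpl19 by 0.044 (adjusted p = 0.545) and Rpl26 by 0.048 (adjusted p = 0.545). Within batch 2 alone, where the control was only the 1 library of mouse 4 that read low for these genes, 9 of the 77 were higher and 0 lower, and 738 genes were called in all, against 188 with the batch term. Against B6J, which shares the batch term, 2 of 77 genes were higher and 0 lower (32 and 2 unadjusted), where 0.0903% and 0.0157% of all genes were called (0.106% in either direction). They were Rpl19 (log2 difference 0.52, SE 0.093, adjusted p = 0.018) and Rpl7a (log2 difference 0.48, SE 0.10, adjusted p = 0.049), and the call of Rpl7a ended in 5 of the 8 fits that left out 1 mouse (adjusted p between 0.0275 and 0.118). The effect of the knockout in B6J was larger than that in B6N for the same 2 genes, Rpl19 (log2 difference 0.47, SE 0.093, adjusted p = 0.0211) and Rpl7a (log2 difference 0.51, SE 0.10, adjusted p = 0.0223), where 0.169% of all genes were called higher and 0.0746% lower (0.243% in either direction). Without the batch term the same difference was 0.076 for Rpl19 (adjusted p = 0.563) and 0.14 for Rpl7a (adjusted p = 0.260). Rps29 was lower in B6J n-Tr20 -/- than in B6J Tg in every library, at 94.6, 90.5, 76.4 and 92.1 CPM against 113, 109, 108 and 107 in batch 1 and 104 in batch 2, without passing the test (log2 difference -0.26, SE 0.10, adjusted p = 0.28). Without the batch term it passed (log2 difference -0.31, adjusted p = 0.000102).

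In the B6N hippocampus, ribosomal protein mRNAs had fewer footprints for their RNA level than the median gene. Footprints against poly(A) RNA were compared as a log2 difference of CPM in the same strain. The titles of the hippocampus samples name no batch, and any batch difference between RNA and footprints cannot be told apart from assay. Of the 77 genes, 65 were lower and 6 higher in footprints than in RNA, against 36.9% lower and 33.8% higher of 15202 genes (70.7% in either direction). Medians were -1.03 for the large and -1.32 for the small subunit, against -0.056 for all genes. Other TOP mRNAs, such as those of the elongation factors, had 10 higher and 10 lower of 22, with a median of 0.087. Nuclear genes of oxidative phosphorylation (OXPHOS) had 67 higher and 2 lower of 74 and a median of 1.55, and mitochondrial ribosomal proteins 64 higher and 6 lower of 78 and a median of 0.94. Summed cell markers differed between the B6N assays as well. Choroid plexus markers summed to 107 to 2756 CPM in RNA and 6011 to 13217 in footprints. Meninges, striatum, hippocampus, astrocyte and microglia markers were also higher in footprints without overlap. Oligodendrocyte markers were lower, at 5468 to 7504 in RNA and 3414 to 4269 in footprints. Neuron and endothelium markers overlapped. The part of these in the result was not tested.

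Rpl7a read 167, 151 and 178 CPM in the 3 B6N RNA libraries and 66.3, 68.1 and 69.2 in the 3 B6N footprint libraries (log2 difference -1.13, SE 0.078, adjusted p = 3.03e-09). Rpl19 read 179.6, 164 and 184 CPM in RNA and 112, 114 and 113 in footprints (log2 difference -0.49, SE 0.075, adjusted p = 2.59e-05). In both genes every footprint library was below every RNA library. Rps29, in contrast, read 141, 117 and 149 in RNA and 72.6, 109.5 and 116 in footprints and was not called (log2 difference -0.30, SE 0.16, adjusted p = 0.117). Among the genes with more footprints than RNA, Rpl8, a large-subunit protein close to the peptidyl transferase centre, read 193, 182 and 193 CPM in RNA and 231, 260.0 and 254 in footprints (log2 difference 0.54, SE 0.080, adjusted p = 1.86e-05), and every footprint library was above every RNA library. Rpl38 (0.41), Rps21 (0.41) and Rps3 (0.24), which lines the mRNA entry of the small subunit, were higher by less, and their calls ended in 4, 1 and 2 of the 6 fits that left out 1 library. Rpl24 had the highest difference of all, 6.23, with 1.53, 0.845 and 1.24 CPM in RNA, and is uncertain for its low RNA count.
The lowest differences were those of Rps10 (-5.40), with 3.97, 2.72 and 3.12 CPM in RNA and 0.0994, 0.109 and 0 in footprints, and Rpl13a (-4.38), with 15.1, 14.9 and 15.8 in RNA and 0.398, 0.761 and 0.801 in footprints. Both are among the 10 genes whose level differed between the tables. The next was Rpl13, a large-subunit protein, with 192, 173 and 195 CPM in RNA and 30.03, 33.0 and 47.5 in footprints (log2 difference -2.19, SE 0.13, adjusted p = 9.97e-10), whose groups did not overlap. Among the 57 genes with a listed promoter, the median was -1.08 for the 37 with a pyrimidine run and -1.07 for the 20 without one. The 17 genes with no named copy had a median of -0.50 and the 60 with one -1.26, and the part of copies in the result was not tested.

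**Figure D3:**
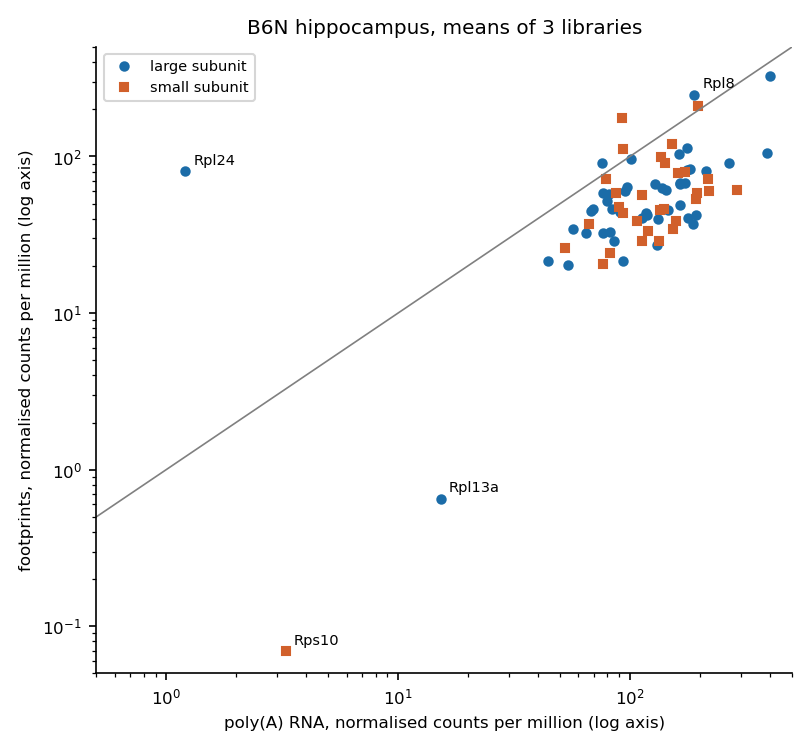
Mean normalised CPM of the 77 genes in 3 poly(A) RNA (horizontal axis) and 3 footprint libraries (vertical axis) of the B6N hippocampus, both on log axes, with the line of equal values. Most genes lie below the line, Rpl8 above it, and Rpl24, Rpl13a and Rps10 apart from the rest.

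In hippocampus RNA no ribosomal protein gene passed the test between B6N n-Tr20 -/- and B6N. edgeR called 0 higher and 0 lower of 77 (2 higher and 0 lower at unadjusted p under 0.05), against 0.031% and 0.0103% of 19352 genes (0.0413% in either direction), and DESeq2 called 0 as well. The median log2 difference, n-Tr20 -/- minus B6N, was 0.0067 for the large and -0.020 for the small subunit, against 0.0031 for all genes. The smallest p were those of Rps15a (log2 difference 0.16, SE 0.053, adjusted p = 0.493) and Rpl13a (log2 difference 0.18, SE 0.075, adjusted p = 0.599). Rpl7a read 167, 151 and 178 CPM in B6N and 174, 177 and 163 in n-Tr20 -/- (log2 difference 0.055, SE 0.073, adjusted p = 0.899). Rpl19 read 179.6, 164 and 184 CPM in B6N and 170.3, 172 and 163 in n-Tr20 -/- (log2 difference -0.066, SE 0.063, adjusted p = 0.841), and Rps29 141, 117 and 149 in B6N and 144, 128 and 121 in n-Tr20 -/- (log2 difference -0.052, SE 0.10, adjusted p = 0.932). In these 3 genes the groups overlapped.

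Footprints on ribosomal protein mRNAs were lower in n-Tr20 -/- than in B6N for part of the set. Of 75 genes that passed the count filter (Rps10 and Rpl13a did not), 11 were lower and 0 higher, against 3.16% lower and 2.19% higher of 13227 genes (5.35% in either direction). In all, 26 were lower and 8 higher at unadjusted p under 0.05, and DESeq2 called 13 lower and 1 higher. Large-subunit genes had a median log2 difference of -0.078 and small-subunit genes of -0.20, against 0.0043 for all genes, with 5 of 45 large-subunit and 6 of 30 small-subunit genes called. For 21 of the 77 genes every n-Tr20 -/- library was below every B6N library, and for 7 above, where 13.2% of 13926 genes with counts in every library lay below in the same sense and 12.7% above.

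Of the 11 lower genes, 8 had an effective transcript length under the median of the 77 genes, 581 bases in forebrain. Rps25, a small-subunit protein that some viral mRNAs need to recruit ribosomes, fell from 25.7, 37.8 and 36.7 CPM in the 3 B6N libraries to 10.4, 16.4 and 18.8 in the 3 n-Tr20 -/- libraries (log2 difference -1.16, SE 0.22, adjusted p = 0.0175). Rplp1, the stalk protein, fell from 64.9, 102 and 107 to 29.8, 40.1 and 49.5 (log2 difference -1.21, SE 0.24, adjusted p = 0.0309). Rps29 fell from 72.6, 109.5 and 116 to 42.5, 58.5 and 55.1 (log2 difference -0.94, SE 0.18, adjusted p = 0.0245). In these 3 genes every n-Tr20 -/- library was below every B6N library, and replicate 1 was the lowest library of its group in both genotypes. Rpl41 fell from 94.9, 98.1 and 116 to 69.5, 82.5 and 69.1 (log2 difference -0.49, SE 0.11, adjusted p = 0.0234), Rpl27a from 35.6, 57.6 and 54.3 to 26.1, 30.9 and 32.8 (log2 difference -0.72, SE 0.17, adjusted p = 0.0322), and Rpl26 from 34.4, 43.4 and 42.6 to 19.0, 28.8 and 28.1 (log2 difference -0.68, SE 0.16, adjusted p = 0.0329). The other 5 called were Rps15, Rps2, Rpl11, Rps26 and Rps12, with log2 differences between -0.59 and -0.47 and adjusted p between 0.0331 and 0.0474. In none of the 11 genes did the groups overlap, which adds no support, since the genes were called from these same libraries.

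Rpl7a had 66.3, 68.1 and 69.2 CPM of footprints in B6N and 61.3, 69.1 and 65.4 in n-Tr20 -/- (log2 difference -0.060, SE 0.094, adjusted p = 0.759). Rpl19 had 112, 114 and 113 CPM in B6N and 91.6, 109 and 106 in n-Tr20 -/- (log2 difference -0.15, SE 0.091, adjusted p = 0.374). Neither passed the test. The groups overlapped for Rpl7a and did not for Rpl19, whose n-Tr20 -/- libraries were all lower.

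**Figure D4:**
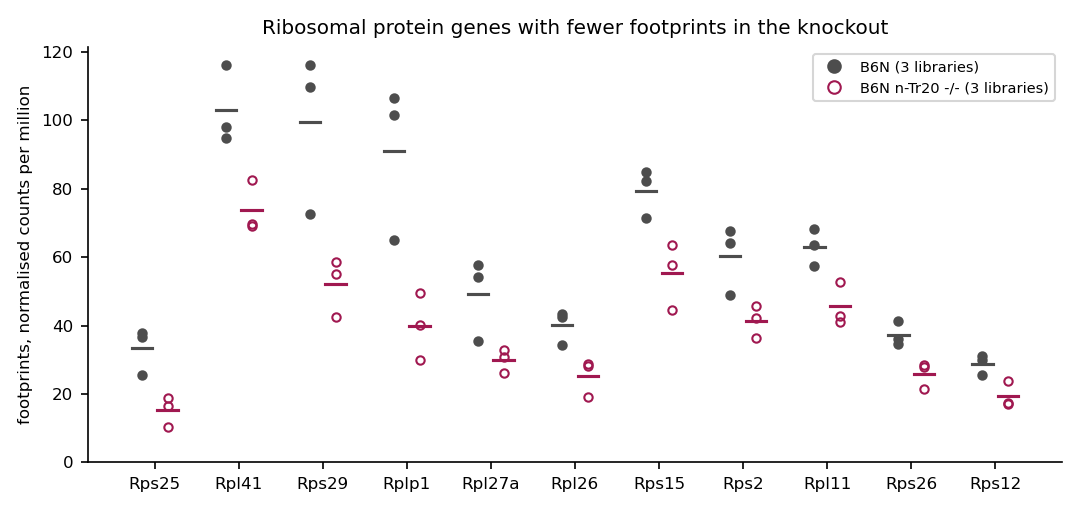
Footprints in normalised CPM of the 11 ribosomal protein genes called lower in n-Tr20 -/- hippocampus, with each of 3 B6N (filled) and 3 n-Tr20 -/- (open) libraries as a point and the group mean as a line. In all 11 genes the knockout mean lies below the B6N mean, and in no gene do the groups overlap.

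The footprint calls rested on few libraries. Without B6N replicate 2, B6N replicate 3 or n-Tr20 -/- replicate 2 the count of lower genes was 0, without n-Tr20 -/- replicate 1 it was 1, without n-Tr20 -/- replicate 3 it was 10, and without B6N replicate 1 it was 17. Replicate 1 of n-Tr20 -/- was the deepest, at 17896587 counts, and had the lowest median deviation, -0.29. Over the 75 genes, those of effective length below that median had a median of -0.19 and the others -0.091, and Spearman's rho between length and the difference was 0.23 over 75 genes, which share their libraries. In the same comparison 14 of 74 OXPHOS genes were lower and 2 higher (median -0.11), and 5 of 78 mitochondrial ribosomal protein genes lower and 0 higher (median -0.068). Markers of cell types and regions were called as well. Of the striatum markers 3 of 6 were higher (Drd1, Penk and Rgs9), while 2 of 6 oligodendrocyte markers (Mbp and Mobp), 2 of 5 microglia markers (Cx3cr1 and C1qa), 1 of 5 hippocampus markers (Prox1) and 1 of 7 forebrain neuron markers (Slc17a7) were lower, and 0 of 5 astrocyte, 4 endothelium, 6 choroid plexus and 5 meninges markers passed (2 higher and 1 lower unadjusted). The summed levels did not overlap between genotypes for striatum, microglia and astrocytes. All 6 striatum markers summed to 106 to 128 CPM in B6N and to 160.5 to 296 in n-Tr20 -/- footprints, the 5 microglia markers to 296 to 353 and 262 to 276, and the 5 astrocyte markers to 1559 to 1676 and 1400.5 to 1533. All 6 choroid plexus markers, with overlap, summed to 6011 to 13217 and 7992 to 18269. The part of these in the result was not tested.

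Footprints relative to RNA, the translational efficiency, were tested as the interaction of genotype and assay over 12 libraries. edgeR called 0 of the 77 genes and 0 of 15202 genes in either direction (percent called 0), with 2 higher and 22 lower of the 77 at unadjusted p under 0.05, and 808 and 1443 over all genes. DESeq2 called 9 of the 77 genes lower and 0 higher, and 468 genes in all. Leaving out B6N footprint replicate 1 gave 8 lower genes and leaving out n-Tr20 -/- footprint replicate 3 gave 3, while in the other fits without 1 library it was 0. Medians, n-Tr20 -/- minus B6N, were -0.13 for the large and -0.24 for the small subunit, against -0.025 for all genes. The smallest p were those of Rps25 (log2 difference -1.18, SE 0.24, adjusted p = 0.0744), Rplp1 (log2 difference -1.32, SE 0.28, adjusted p = 0.0878) and Rps29 (log2 difference -0.92, SE 0.23, adjusted p = 0.114), beside -1.16, -1.21 and -0.94 in footprints alone.

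**Figure D5:**
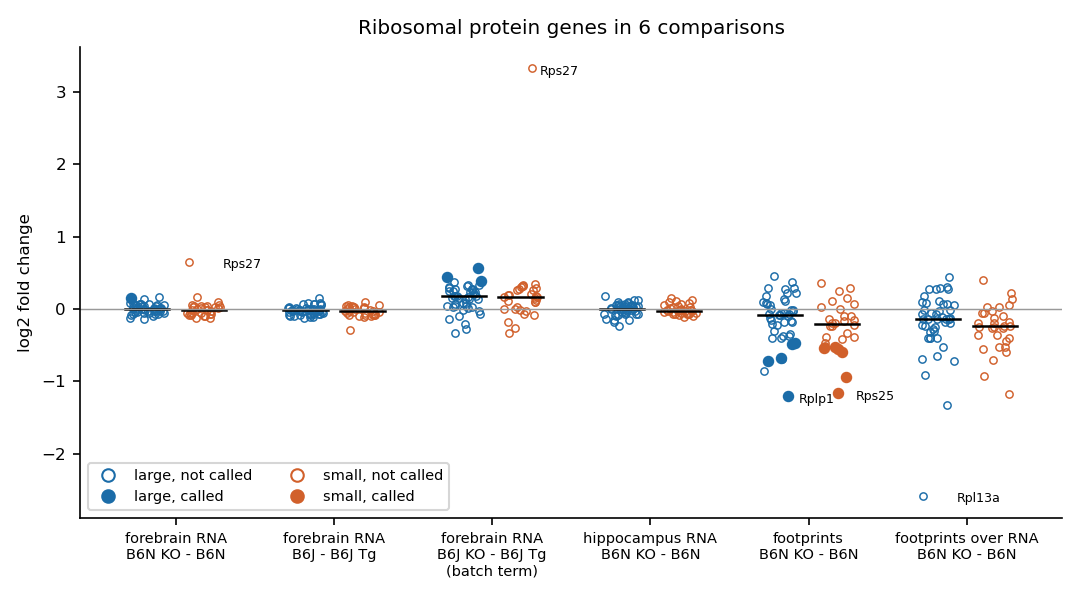
Log2 fold changes of the large-subunit (blue) and small-subunit (orange) genes in 6 comparisons, with filled points called at adjusted p under 0.05 and black lines at the medians. Called points stand in the B6J n-Tr20 -/- forebrain comparison fitted with the batch term, above 0, in hippocampus footprints, below 0, and once (Rpl23) in B6N forebrain; the highest open points in the B6N and B6J knockout forebrain comparisons are Rps27.

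The 4 X-linked genes, Rpl10, Rpl36a, Rpl39 and Rps4x, were not called in any comparison between genotypes. Rps4x, a small-subunit protein, read 199.9, 182 and 195 CPM in B6N hippocampus RNA and 212, 206 and 209.7 in n-Tr20 -/- (log2 difference 0.12, SE 0.059, adjusted p = 0.659). In footprints it read 47.4, 60.7 and 51.6 CPM in B6N and 66.3, 70.6 and 58.7 in n-Tr20 -/- (log2 difference 0.29, SE 0.12, adjusted p = 0.155). The n-Tr20 -/- libraries were all higher in RNA, and the groups overlapped in footprints. Replicate 1 of n-Tr20 -/- hippocampus RNA, with Xist at 1243 CPM, had the highest Rps4x value in RNA (212). The part of this in the result was not tested. Rpl39, a short protein of the exit tunnel, read 46.3, 42.0 and 45.1 CPM in B6N hippocampus RNA and 43.0, 41.4 and 40.9 in n-Tr20 -/- (log2 difference -0.089, SE 0.065, adjusted p = 0.774), and 18.2, 26.2 and 20.4 and 20.7, 29.1 and 26.2 in footprints (log2 difference 0.22, SE 0.17, adjusted p = 0.491). Rpl10, which joins the large subunit late in its assembly, had 59.0, 78.7 and 66.1 CPM of footprints in B6N and 45.5, 57.0 and 55.9 in n-Tr20 -/- (log2 difference -0.37, SE 0.13, adjusted p = 0.105), with no overlap. Rpl36a had 20.7, 18.3 and 21.6 in B6N and 15.7, 22.1 and 22.4 in n-Tr20 -/- (log2 difference -0.026, SE 0.17, adjusted p = 0.948), with overlap. The B6J n-Tr20 -/- forebrains, with Xist in 3 of the 4, read 44.8, 32.1, 31.1 and 39.4 CPM for Rpl36a against 45.0, 36.8, 43.7 and 42.2 in batch 1 of B6J Tg and 36.2 in batch 2 of mouse 4. The knockout mean of Rpl36a was lower than that of batch 1 (log2 ratio -0.19), and the fit with the batch term, which rests on the batch 2 library, gave a difference near 0 (log2 difference 0.044, SE 0.22, adjusted p = 0.969).

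Ribosomal proteins outside the symbol rule were read in the same libraries. Fau, which encodes Rps30 fused to a ubiquitin-like part, read 96.0, 91.7, 87.4 and 86.8 CPM in B6N forebrain and 84.5, 91.9, 86.1 and 86.8 in n-Tr20 -/- (log2 difference -0.053, SE 0.048, adjusted p = 0.727). In hippocampus footprints it was at 76.4, 74.0 and 58.8 in B6N and 80.5, 106 and 76.6 in n-Tr20 -/- (log2 difference 0.33, SE 0.14, adjusted p = 0.177). Rack1, the scaffold of the small subunit, was higher in footprints than RNA in B6N (log2 difference 0.93, SE 0.079, adjusted p = 3.34e-08), unlike 65 of the 77 genes. Its genotype difference in footprints did not pass the test (log2 difference 0.023, SE 0.088, adjusted p = 0.906). Of 9 paralogs, 5 were tested in forebrain and none was called between B6N and n-Tr20 -/-, and Rps27l (log2 difference 1.90, SE 0.16, adjusted p = 3e-08) and Rpl22l1 (log2 difference 0.78, SE 0.10, adjusted p = 3.08e-06), paralogs of Rps27 and Rpl22, were higher in footprints than RNA in B6N. Rpl36al was too, at 0.390, 0.382 and 0.668 CPM in RNA and 7.95, 8.26 and 9.70 in footprints, but its low RNA count makes it uncertain.

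Other genes of the pathway are given by list, and the shares called over all genes were 1.11% higher and 0.807% lower in B6N n-Tr20 -/- forebrain, 0.546% and 0.192% in B6J n-Tr20 -/- against B6J Tg, 0.031% and 0.0103% in hippocampus RNA, and 2.19% and 3.16% in footprints. By edgeR, of 22 other TOP mRNAs 2 were higher and 1 lower in B6N n-Tr20 -/- forebrain, with a median of 0.036, and in footprints 0 were higher and 0 lower (2 and 0 unadjusted) with a median of 0.054. In B6J n-Tr20 -/- forebrain with the batch term, 3 were higher and 0 lower, Eef1a1, Eef2 and Hnrnpa1, with a median of 0.14. Of 50 ribosome biogenesis and polymerase I genes, 6 were higher and 0 lower in n-Tr20 -/- footprints, among them Ncl, the nucleolar protein nucleolin (log2 difference 0.45, SE 0.075, adjusted p = 0.00845), with a median of 0.15, and 0 of 50 passed in hippocampus RNA (5 higher and 0 lower unadjusted). Of 22 mTORC1 and TOP regulators, 0 of 21 tested passed in footprints (0 higher and 1 lower unadjusted), with a median of 0.077.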

How the data were processed

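The 77 genes and the gene lists were chosen with earlier results of these data known. The authors deposited estimated counts and TPM per transcript for forebrain and whole-number counts per gene for hippocampus RNA and footprints. Of tools, HISAT2 2.1.0, Bowtie2 2.2.3, featureCounts and kallisto 0.42.4 appear in the submitters' processing notes, with the build mm10, and which table each served is not given in the sources used here. Per the labels' protocols, forebrain libraries were stranded total RNA and hippocampus libraries were poly(A) RNA or ribosome footprints. Estimated counts were summed per gene over its transcripts and rounded to whole numbers. Counts were normalised by the trimmed mean of M values (TMM) to CPM, and tested with edgeR 4.0.16 (quasi-likelihood, filterByExpr with a minimum count of 10, called at adjusted p under 0.05) in R 4.3.3, with DESeq2 1.42.0 as an alternative. Forebrain B6N, B6N n-Tr20 -/-, B6J and B6J Tg shared 1 fit of 16 libraries, and B6J n-Tr20 -/- a fit of 21 with a batch term. The fits had common biological coefficients of variation of 7.04% (16 libraries), 7.87% (21), 14.0% (hippocampus RNA) and 12.9% (footprints). The fits were tested on simulated data first. All genes were drawn with the common spread of the fit and without a batch effect, and only genes above a minimum mean count were changed. The libraries of B6J Tg mouse 4 were drawn as independent. The shares recovered therefore describe these settings and need not hold for the real counts. Of genes changed 1.5-fold, 94% were recovered in B6N n-Tr20 -/- forebrain and 19% in B6J n-Tr20 -/- against B6J Tg. In hippocampus RNA 39% were recovered, in footprints 38% and in translational efficiency 10%. Small changes could thus be missed in the last 4 of these. SE was the log2 difference over the square root of the F statistic. Genes named are Rpl7a, Rpl19 and Rps29, at most 6 called genes per direction and comparison by smallest p (2 where none was called), the 3 highest and lowest by TPM and by footprints minus RNA, X-linked members, and the fusions and paralogs, a few of which are not reported here; the other called genes, the table mismatches and members of other lists were named after their values were seen. Alternatives were normalisation, filter, tool, transcripts, length offset, replicate block, batch term and leaving out each replicate. Of 46 pairs of same-group libraries none agreed within sampling noise (lowest chi-square over degrees of freedom 2.73).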

Additional observations from a re-analysis of the deposited data

Results flagged for a closer look

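The effect of n-Tr20 loss differed between B6J and B6N for Rpl19 (log2 difference of the effects 0.47) and Rpl7a (0.51), both larger in B6J in the fit with the batch term. Both rest on the batch 2 library of B6J Tg mouse 4, as described above.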

How the results depend on the processing

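Of 360 recomputed counts of called genes, 303 stayed within 1.5 times the reported count. With protein-coding transcripts only, B6N n-Tr20 -/- forebrain had 0 higher and 1 lower, B6J against B6N 1 lower, B6J n-Tr20 -/- 5 higher against B6J Tg and 1 against B6J, and the difference of the knockout effects 1 higher. With a transcript length offset the same comparisons had 0 higher in B6N n-Tr20 -/-, 1 higher in B6J n-Tr20 -/- against B6J and 0 higher for the difference of effects. RLE normalisation gave 8 higher in B6J n-Tr20 -/- against B6J Tg, no filter on low counts 1 higher against B6J, and only the 2 groups compared 1 higher and 2 lower in B6J against B6N. DESeq2 called 11 higher in B6J n-Tr20 -/- against B6J Tg, 10 against B6J, 4 for the difference of effects, 1 higher in footprints and 9 lower in translational efficiency. Without the batch term these B6J n-Tr20 -/- comparisons had 8 higher and 18 lower, 11 higher and 15 lower, and 0 higher and 4 lower, and their medians over the 77 genes changed sign, from 0.17 to -0.033 against B6J Tg, from 0.20 to -0.012 against B6J and from 0.16 to -0.054 for the difference of effects. Within batch 2, chosen after seeing the data, 9 were higher against B6J Tg. The cause of these changes was not tested.

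Leaving out 1 replicate at a time gave 0 to 1 higher in B6N n-Tr20 -/- forebrain, 2 to 14 higher and 0 to 1 lower in B6J n-Tr20 -/- against B6J Tg, 1 to 4 higher against B6J, 2 to 6 higher for the difference of effects, 0 to 1 higher and 0 to 17 lower in footprints, and 0 to 8 lower in translational efficiency. Footprints against RNA in B6N kept 64 to 68 lower genes. Of 926 recomputed differences of single genes, 839 kept their direction and side of the threshold, 61 lost a call, 15 gained one and 11 changed sign, none of the 11 called in the reported fit. Of 540 recomputed medians, 51 changed sign, 9 of them without the batch term.

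The replicate numbers were not taken to pair the samples, since not every same-numbered pair correlated above 0.1: the correlations were -0.18 to 0.13 over 24 forebrain pairs, -0.44 to 0.13 over 3 hippocampus RNA pairs, -0.019 to 0.075 over 3 footprint pairs, and -0.53 to 0.21 over 18 pairs of the fit of RNA and footprints together, 8 of them above 0.1. These correlations cannot exclude pairing, since they rest on groups of few libraries and the 18 pairs include libraries of different genotypes. For replicate 1 of n-Tr20 -/- hippocampus, the Y-linked gene Ddx3y was at 0.336 CPM in RNA and 45.5 in footprints. That number therefore does not stand for the same single animal in RNA and footprints. With the replicate block, 8 genes were higher and 1 lower in B6J n-Tr20 -/- against B6J Tg, 1 was lower in B6J against B6N and 13 were lower in footprints, and the other counts stayed within 1.5 times. Footprint libraries held 7616107 to 17896587 counts, and the part of depth in the calls was not tested.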
